A study of Mus musculus with 93 samples.

Results

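The mitosis genes are 36 mouse genes of G2 and M phase. The genes were chosen by name for their known roles, with earlier results of these data known. All 36 were found among the 24514 gene symbols of the count table. They were measured by RNA sequencing of 93 libraries, each made from a pool of 10 sorted cells. GFP+ cells express the Hcn4-GFP reporter, which marks the first heart field (FHF), and RFP+ cells bear the red Ai9 reporter that Tbx1-Cre switches on for good, which marks the lineage of the second heart field (SHF) even after Tbx1 is off. All groups carry the same 3 alleles, Hcn4-GFP, Tbx1-Cre and Ai9. In vivo cells came from mouse embryos (titled E8.5, with E7.75 in the protocol) and gave 5 GFP+ and 4 RFP+ libraries. In vitro cells came from spheroids at day 5.5, grown from 1 embryonic stem cell line derived from such embryos, and gave 38 GFP+ and 46 RFP+ libraries. No label ties a well to an embryo or to a differentiation run, so each n is a number of wells, and p-values measure the spread among wells, part of which may be technical.

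Entry into mitosis is driven by the kinase Cdk1 bound to a cyclin, which Cdc25 phosphatases switch on. Aurora and Polo kinases then build the spindle, the spindle checkpoint holds the anaphase-promoting complex (APC) until every kinetochore is attached, and the APC, with Cdc20 and the ubiquitin-conjugating enzyme Ube2c, marks cyclin B and securin for destruction. Transcripts of most of these genes accumulate in G2 and M and are low in resting cells, so a pool of 10 cells holds more of them when more of its cells are cycling. More cells in G2 or M and more of these transcripts per cell cannot be told apart in such pools.

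The promoters of genes of this phase are known for a pair of short elements, the cell cycle genes homology region (TTTGAA or TTTAAA) and the CCAAT box. RefSeq promoters of 300 bases (250 before to 50 after the start, GRCm38.p6) were at hand for 30 of the 36 genes. Either form of the first element, read on both strands, was found for 24 of the 30 genes (80.0%), against 30.6% of all 27025 genes with a promoter. CCAAT, also on both strands, was found for 22 of the 30 (73.3%, against 41.1% of all genes), and both kinds for 20 (66.7%, against 12.2%). The 2 kinds can overlap by a base, and a match is only a match of letters. The following windows run from 110 bases before to 30 bases after the start, 5′ to 3′ on the gene's strand, with matches in capitals. They are shown because Ube2c and Kif23 were the members that passed the test in embryos, in opposite directions, Ccnb2 and Cdc25b had the largest fold changes among those with a sequence in spheroids, and Cdc20 alone did not pass the test there.
Ube2c, chr2:164769819-164769958, plus strand: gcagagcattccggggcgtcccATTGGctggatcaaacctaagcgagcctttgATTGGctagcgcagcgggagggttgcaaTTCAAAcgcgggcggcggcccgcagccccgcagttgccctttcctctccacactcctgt
Kif23, chr9:61946770-61946909, minus strand: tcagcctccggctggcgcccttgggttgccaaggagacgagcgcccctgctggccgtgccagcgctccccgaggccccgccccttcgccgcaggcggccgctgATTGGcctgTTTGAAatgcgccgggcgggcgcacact
Ccnb2, chr9:70421525-70421664, minus strand: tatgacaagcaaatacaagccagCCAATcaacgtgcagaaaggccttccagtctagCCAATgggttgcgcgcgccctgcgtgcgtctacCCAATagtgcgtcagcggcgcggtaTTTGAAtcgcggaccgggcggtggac
Cdc20, chr4:118437314-118437453, minus strand: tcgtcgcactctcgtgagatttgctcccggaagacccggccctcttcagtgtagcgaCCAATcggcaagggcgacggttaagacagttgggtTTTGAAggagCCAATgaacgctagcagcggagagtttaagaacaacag
Cdc25b, chr2:131186838-131186977, plus strand: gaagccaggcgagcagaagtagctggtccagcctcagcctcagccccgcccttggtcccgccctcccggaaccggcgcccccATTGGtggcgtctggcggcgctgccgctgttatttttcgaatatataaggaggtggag
Ube2c, Kif23, Ccnb2 and Cdc20 each held 1 match of the first element and between 1 and 3 of CCAAT in this window. Cdc25b held 1 CCAAT and no match of the first element.

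Total counts per library ran from 712732 to 2525460 in GFP+ and from 1246546 to 1479957 in RFP+ libraries in vivo, and from 6288 to 4371849 in GFP+ and from 445071 to 5658882 in RFP+ libraries in vitro. The library of 6288 counts is GFP+ well C9, in which 18 of the 36 genes were detected. In vivo, GFP+ libraries held fewer detected genes (6189 to 8302) than RFP+ libraries (10263 to 13052). In vitro RFP+ wells lay in plate columns 1 to 6 and GFP+ wells in columns 7 to 11, so the populations and their columns cannot be told apart, and 7 RFP+ wells of column 3 were nearly the same as their neighbours in column 4 (r of 0.976 to 0.994). The summed level of 9 cardiomyocyte markers was 17781 to 51543 CPM (counts scaled to library size) in GFP+ and 1178 to 2251 CPM in RFP+ embryo libraries, and in spheroids it was 0 to 1255 CPM (median 53.1) in GFP+ and 13.9 to 139 CPM (median 58.4) in RFP+ wells, far below the GFP+ embryo cells. Of the 4 cardiomyocyte genes tested in spheroids, 3 were called higher in GFP+ cells (Ttn at log2 -3.31, Tnni1 at -1.94 and Myl7 at -1.44). Tbx1 itself was at 0 in every GFP+ embryo library and had a mean of 3.94 CPM in RFP+ embryo cells. Its means in spheroids were 0.0308 CPM in GFP+ and 2.51 CPM in RFP+ cells. Sums of 7 pharyngeal and second heart field markers, Tbx1 included, overlapped between populations. They were 68.4 to 288 CPM in GFP+ and 271 to 343 CPM in RFP+ embryo libraries. In spheroids they were 0 to 270 CPM (median 135) in GFP+ and 133 to 303 CPM (median 188) in RFP+ wells. Of these genes only Isl1 had a higher mean in GFP+ cells. It was at 62.6 CPM in GFP+ and 24.9 CPM in RFP+ wells, and at 149 and 144 CPM in embryos. Summed levels of 9 pluripotency markers in spheroids ran higher in GFP+ (103 to 1723 CPM, median 258) than in RFP+ wells (14.8 to 581 CPM, median 56.1), as did those of 9 endoderm markers (medians 292 and 105 CPM), a sum made up mostly of the epithelial genes Epcam and Cldn6, whereas Foxa2 was called higher in RFP+ cells (means of 2.28 CPM in GFP+ and 9.05 CPM in RFP+ wells). In embryos the sums of 8 endothelial markers (3.23 to 94.7 against 186 to 524 CPM) and of the endoderm markers (0 to 24.8 against 10.7 to 647 CPM) ran higher in RFP+ libraries. This endoderm sum, too, was mostly Cldn6 and Epcam, with RFP+ means of 255 and 64.2 CPM and 0 in GFP+ libraries. Tek, Spink1 and Apoa1 had higher means in GFP+ libraries. In 1 RFP+ library 7 blood markers reached 1157 CPM, and the part of such cells in the results was not tested.

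In spheroids, 35 of the 36 mitosis genes were higher in RFP+ than in GFP+ cells at an adjusted p under 0.1 in edgeR's quasi-likelihood test (Benjamini-Hochberg over all genes tested), and none was higher in GFP+ cells. Over all 9940 genes tested, 37.8% passed with a higher level in RFP+ cells and 40.1% with a higher level in GFP+ cells. The median log2 fold change of the 36 was 0.68, against -0.02 over all genes. The exception was Cdc20, the activator of the APC, at -0.08 ± 0.08 (log2 fold change ± SE, adjusted p = 0.370). Of the 36 genes, 31 had a mean in each RFP+ plate column above that of every GFP+ column, all but Bub3, Cdc20, Ndc80, Prc1 and Anln. The share of all genes with this order was not counted, so the 31 cannot be read against a background.

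**Figure D1:**
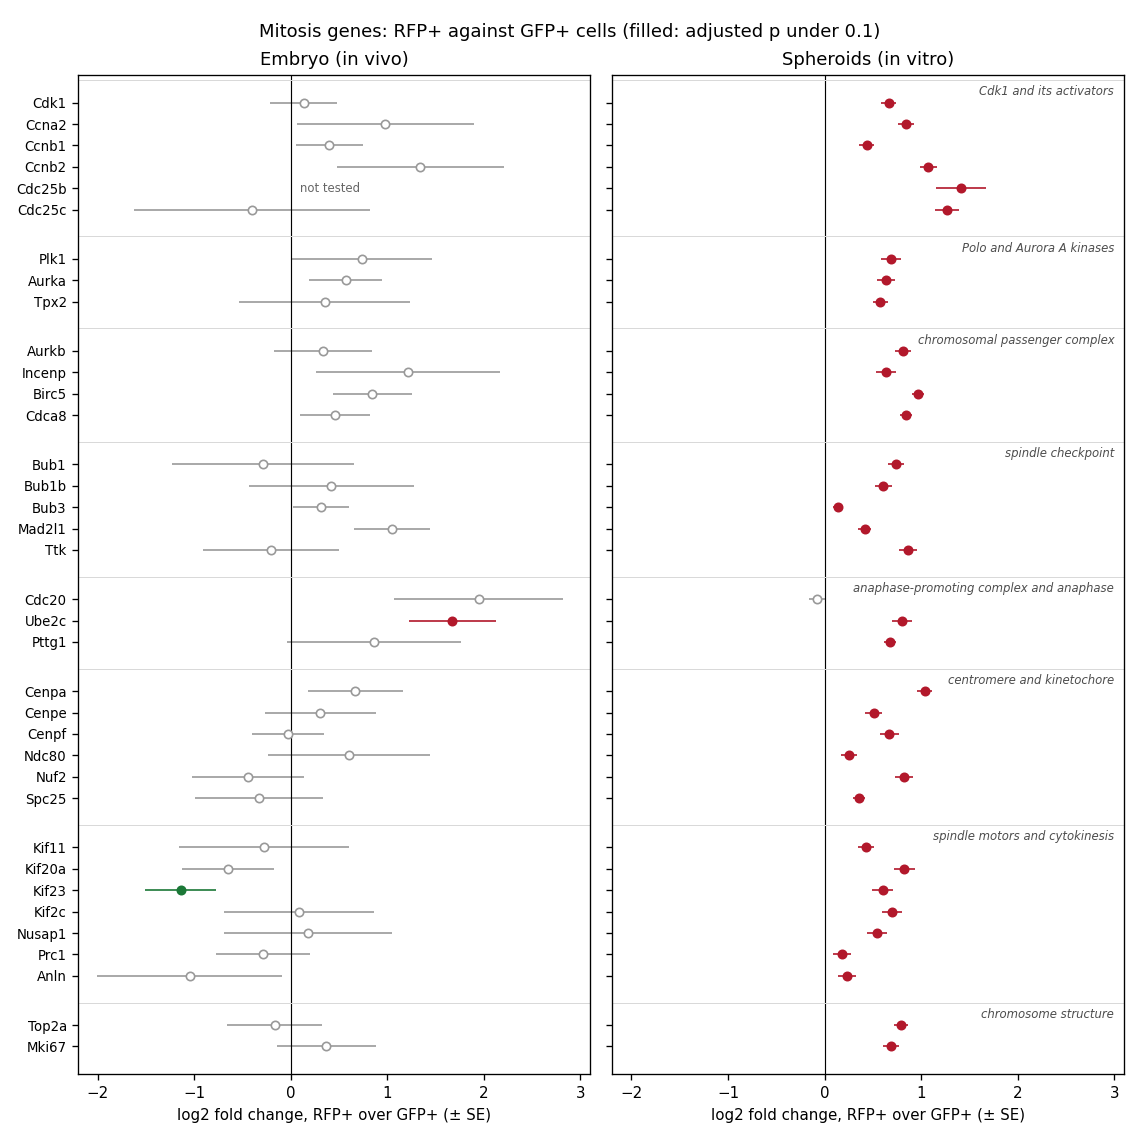
Log2 fold change of each mitosis gene between RFP+ and GFP+ cells, in embryos (left, 5 GFP+ and 4 RFP+ libraries) and in spheroids (right, 38 and 46 libraries), by role, with its standard error. Filled points passed an adjusted p under 0.1 (red, higher in RFP+, green, higher in GFP+): 35 of 36 in spheroids, and only Ube2c and Kif23 in embryos, where the standard errors were several times wider.

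Among Cdk1 and its activators all 6 genes were higher in RFP+ cells. The largest fold changes of all members were those of Cdc25b and Cdc25c, the phosphatases that activate Cdk1, and of Ccnb2, a B-type cyclin. Ccnb2 ran from 45.4 to 349.9 CPM (median 154) in the 37 GFP+ wells other than C9, and from 224 to 430.2 CPM (median 328) in the 46 RFP+ wells. Every RFP+ well lay above the GFP+ median, and 1 GFP+ well above the RFP+ median. The fold change was 2.11 (log2 1.08 ± 0.08, adjusted p = 3.60e-21). Cdc25c ran from 0 to 65.4 CPM (median 28.7) in those GFP+ wells and from 40.7 to 112 CPM (median 73.1) in RFP+ wells, with a log2 fold change of 1.27 ± 0.13 (adjusted p = 9.59e-16). Cdc25b was the lowest member throughout, with medians of 3.1 CPM in GFP+ and 10.7 CPM in RFP+ wells and a log2 fold change of 1.41 ± 0.26 (adjusted p = 8.76e-07). Ccnb1, the other B-type cyclin and the member of this group with the most counts, had a smaller log2 fold change of 0.44 ± 0.08 (adjusted p = 6.83e-07), from a GFP+ median of 302 CPM to an RFP+ median of 428 CPM.

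The Polo and Aurora A kinases and the chromosomal passenger complex, which corrects faulty attachments, all moved in the same direction. Aurka, the kinase of the spindle poles, had a median of 160.5 CPM in GFP+ and 241.5 CPM in RFP+ wells (log2 0.64 ± 0.09, adjusted p = 1.86e-09), and Plk1 and Tpx2, its partner on spindle microtubules, rose by log2 0.69 and 0.58. Birc5, or survivin, ran from 147 to 482 CPM (median 273) in GFP+ wells without C9 and from 439.6 to 668 CPM (median 537) in RFP+ wells. No GFP+ well other than C9 lay above the RFP+ median of Birc5, and its log2 fold change was 0.97 ± 0.06 (adjusted p = 1.70e-25). The other 3 subunits of the complex rose by log2 0.64 (Incenp) to 0.85 (Cdca8).

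The spindle checkpoint genes spread more widely, from log2 0.14 for Bub3 to 0.86 for Ttk, the checkpoint kinase Mps1. Bub3, the partner of Bub1 and Bub1b, had the most counts of all members, and its wells overlapped widely, from 321 to 651 CPM (median 481) in GFP+ without C9 and from 303 to 747 CPM (median 529.9) in RFP+ cells (log2 0.14 ± 0.05, adjusted p = 0.00993). Among genes of the APC step, Ube2c ran from 77.2 to 591 CPM (median 225) in GFP+ wells without C9 and from 218 to 717 CPM (median 424) in RFP+ wells, a log2 fold change of 0.80 ± 0.10 (adjusted p = 1.48e-11). Pttg1, the securin that the APC removes, rose by log2 0.68 ± 0.06. Cdc20 ran from 88.3 to 302 CPM (median 168) in GFP+ wells without C9 and from 101 to 239.9 CPM (median 168) in RFP+ wells. Of the 37 GFP+ wells, 19 lay above the RFP+ median of Cdc20, so the wells overlapped through most of their range.

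All 6 centromere and kinetochore genes and all 7 genes of spindle motors and cytokinesis passed. Cenpa, the centromeric histone, led the first of these groups with log2 1.04 ± 0.08 (adjusted p = 2.14e-21), and Spc25, a subunit of the Ndc80 complex with the most counts of the group, rose by 0.36 ± 0.06 (adjusted p = 4.75e-07). Ndc80 itself rose by 0.25. In the second group Kif20a, a kinesin of the midzone, was highest at log2 0.83 ± 0.11 (adjusted p = 2.40e-10), and Kif23, the kinesin of centralspindlin, rose by 0.60 ± 0.11 (adjusted p = 7.39e-07). Prc1, which bundles midzone microtubules, had a log2 fold change of 0.18 ± 0.10 and the largest adjusted p of the called members, 0.0751, and 12 of 37 GFP+ wells lay above the RFP+ median. With the near-identical wells of columns 3 and 4 summed, its adjusted p was 0.108. Top2a, the topoisomerase that untangles sister chromatids, ran from 143 to 507 CPM (median 303) in GFP+ wells without C9 and from 352 to 744 CPM (median 525) in RFP+ wells (log2 0.79 ± 0.07, adjusted p = 2.81e-17), and Mki67, the Ki-67 protein coating chromosomes, rose by 0.68.

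Per length of annotated exon, the order of levels in RFP+ spheroid cells was led by Ccnb2 (217 CPM per kb), Pttg1 (186), Ube2c (168) and Birc5 (158), and Cdc25b (3.28) and Anln (8.78) were at its foot. In GFP+ spheroid cells Pttg1 led with 114 CPM per kb, followed by Ccnb2 with 99.5, Ube2c with 91.8 and Cdc20 with 91.6, and Birc5 followed with 78.1. Some counts are uncertain for reasons of sequence. Ccnb1 has 4 other annotated copies that match 383 to 1294 of its 2489 transcript bases at 96.6% identity or more, shorter stretches of Mad2l1 (454 bases) and Mki67 (216 bases) match 1 other gene each, and exons overlap a gene on the opposite strand over 29.3% of their length in Kif20a (with Cdc23), 22.8% in Ube2c (with Tnnc2), 12.7% in Cdc25c, 12.5% in Ccna2 and 11.1% in Prc1.

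Summed over the 36 genes, the level was 5266 ± 1498 CPM in GFP+ spheroid wells (SD, n = 38) and 8356 ± 879 CPM in the RFP+ wells (SD, n = 46), a ratio of 1.59. The near-identical RFP+ wells of neighbouring columns were counted separately in this n. These sums are 0.533% and 0.826% of all counts. Of the 38 GFP+ wells 5 lay above the lowest RFP+ well. The medians of single plate columns ran from 4507 to 6176 CPM over the 5 GFP+ columns and from 7868 to 8357 CPM over the 6 RFP+ columns, so the columns of each population did not overlap with those of the other. The GFP+ values include the shallow well C9, which lies in the column of the lowest median. Its sum was the lowest, at 2347 CPM, but 5089 CPM when scaled by total counts alone. In embryos the sum was 7738 ± 2895 CPM over the 5 GFP+ libraries (SD) and 9749 ± 709 CPM over the 4 RFP+ libraries, and the RFP+ libraries lay within the GFP+ range of 4680.1 to 11945 CPM.

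**Figure D2:**
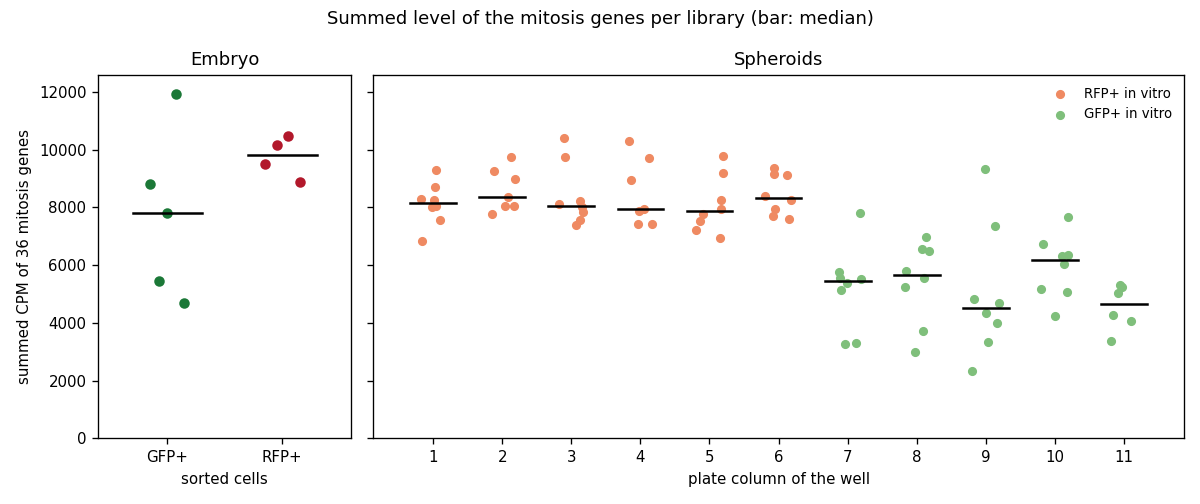
Summed CPM of the 36 mitosis genes in each library, for embryo cells (left) and for spheroid wells by plate column (right), with medians as bars. RFP+ wells sit between 6840.5 and 10398 CPM and GFP+ wells between 2347 (the shallow well C9) and 9351 CPM. In embryos the GFP+ libraries spread wider than the RFP+ libraries.

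In embryos, 35 of the 36 genes had enough counts to be tested, and 1 was called higher in RFP+ cells (Ube2c) and 1 higher in GFP+ cells (Kif23). Over all 8503 genes tested, 6.21% passed with a higher level in RFP+ cells and 3.88% with a higher level in GFP+ cells, so the members' share was not above that of all genes. In 1 fit over all 4 groups 16 members were called, 14 of them higher in RFP+ cells, where 7115 of 12655 genes were called, and with 1 embryo library left out the count ran from 0 to 4. The fold change was positive for 23 and negative for 12 members, with a median of 0.33 on the log2 scale against 0.09 over all genes. GFP+ embryo libraries varied strongly: the median SD of a member's log2 CPM was 1.22 in them and 0.28 in RFP+ embryo libraries, and 11 of the 180 values in GFP+ libraries were 0, against none of 144 in RFP+ libraries. All genes of a mean of at least 50 CPM had a median SD of 1.40 in these GFP+ libraries and 0.34 in the RFP+ libraries.

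Ube2c, on chromosome 2 (164769898 to 164778822, plus strand, GRCm38), was at 59.5, 93.0, 126, 292 and 323 CPM in the 5 GFP+ embryo libraries and at 452, 465, 683 and 717 CPM in the 4 RFP+ libraries. Every RFP+ library lay above every GFP+ library. The fold change was 3.19 (log2 1.67 ± 0.45, adjusted p = 0.0372), and without RFP+ library G11 or H11 the adjusted p was 0.131 and 0.118. Its exons share 592 bases with Tnnc2 on the opposite strand, which had at most 4.74 CPM in any library. Whether reads over these bases were lost was not tested.

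Kif23, on chromosome 9 (61915905 to 61946774, minus strand, GRCm38), was at 156, 338, 346, 418 and 559.9 CPM in GFP+ embryo libraries and at 143, 165, 181 and 190.4 CPM in RFP+ libraries. Of the 5 GFP+ libraries, 4 lay above all RFP+ libraries and 1 between them. The log2 fold change was -1.14 ± 0.37 (adjusted p = 0.0901), and it passed the threshold in 2 of the 9 fits that left out 1 library, with an adjusted p of 0.110 to 0.278 in the other 7. Of the members in its role, the next lowest values did not pass: Anln, an actin and myosin scaffold of the cleavage furrow, was at log2 -1.05 ± 0.96, and Kif20a at -0.65 ± 0.48.

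**Figure D3:**
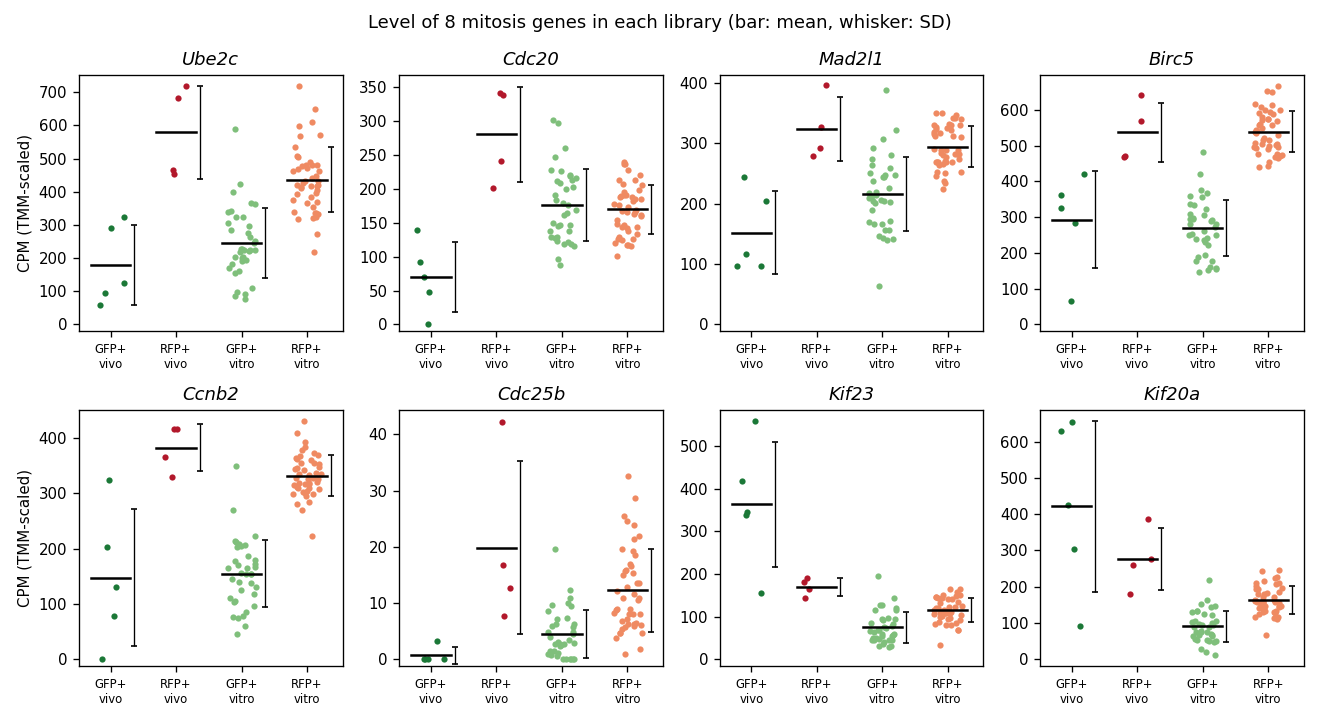
CPM of 8 mitosis genes in each library of the 4 groups (GFP+ well C9 left out), with the mean as a bar and the SD as a whisker. In embryos the RFP+ points of Ube2c, Cdc20, Mad2l1, Birc5, Ccnb2 and Cdc25b lie above all GFP+ points, and 4 of the 5 GFP+ points of Kif23 lie above all its RFP+ points.

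Of the 35 tested members, 5 had every RFP+ embryo library above every GFP+ library (Ccnb2, Birc5, Mad2l1, Cdc20 and Ube2c), and none had the reverse order. Over all genes tested, 13.7% had the first order and 3.6% the second, so 5 of 35 is close to the background. Cdc20 was at 0, 47.6, 69.4, 92.0 and 139.7 CPM in GFP+ and at 201, 241, 338 and 341 CPM in RFP+ libraries (log2 1.95 ± 0.87, adjusted p = 0.286). Without GFP+ library A12, where it was at 0, the log2 fold change was 1.62 with an adjusted p of 0.0365. Mad2l1, a checkpoint protein that holds Cdc20 inactive, was at 95.8, 96.2, 117, 205 and 245 CPM in GFP+ and at 279, 293, 328 and 397 CPM in RFP+ libraries (log2 1.05 ± 0.39, adjusted p = 0.164). Ccnb2 ran from 0 to 325 CPM in GFP+ and from 330.1 to 417 CPM in RFP+ libraries (adjusted p = 0.575), and Birc5 from 66.3 to 421 CPM and from 469 to 640.2 CPM (adjusted p = 0.343). Cdc25b, which fell under the filter on low counts, was at 0 in 4 GFP+ libraries and at 3.23 CPM in the fifth, and at 7.60, 12.6, 16.8 and 42.3 CPM in RFP+ libraries. Without the filter its adjusted p was 0.125.

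In every other member the embryo libraries of the populations overlapped. All 4 subunits of the passenger complex had positive fold changes in embryos (median log2 0.65), as did the 3 Polo and Aurora A genes (0.57), and none but Ube2c of these and the APC genes passed. Aurka was at 133, 164, 221, 343 and 461 CPM in GFP+ and at 315, 389.8, 405 and 509 CPM in RFP+ libraries (log2 0.57 ± 0.38, adjusted p = 0.593), so 2 GFP+ libraries lay within the RFP+ range. Bub3 was at 275, 316, 479.8, 636 and 699 CPM in GFP+ and at 549.6, 614, 641 and 644 CPM in RFP+ libraries (adjusted p = 0.763). Spc25 was at 45.0, 72.7, 270.3, 571 and 761 CPM in GFP+ libraries, a wider span than the 216 to 399 CPM of the RFP+ libraries that lay inside it. The same was true of Top2a, at 162, 199.8, 388, 489.8 and 1285 CPM in GFP+ and from 366 to 559 CPM in RFP+ libraries, and of Prc1, which ran from 113 to 714 CPM in GFP+ and from 216 to 318 CPM in RFP+ libraries. Of the 7 genes of spindle motors and cytokinesis 5 had negative fold changes (median -0.29). The median value is that of Prc1, whose direction reversed under voom with a weight for each group and without GFP+ library A12.

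In a test of the difference between the 2 sources, the log2 fold change of Kif23 was 1.74 ± 0.39 higher in spheroids than in embryos (adjusted p = 0.0651), and no other member passed. In the interaction term of 1 fit over all 4 groups 15 members passed, where 6889 of 12655 genes did. Of all 8182 genes tested, 5.26% were called. The values of Kif23 were 0.60 in spheroids and -1.14 in embryos, and its difference kept its sign but missed the threshold without GFP+ library D12 (adjusted p = 0.108) and without each of the 4 RFP+ libraries (0.145 to 0.198). All 7 genes of spindle motors and cytokinesis had a larger fold change in spheroids, with a median difference of 0.71, and all 3 genes of the APC step a smaller one, with a median of -0.87. None of these but Kif23 passed the test of the separate fits. Over the 35 members tested the difference was positive for 25 and negative for 10. Its median was 0.37, against -0.11 over all genes. The difference for Cdc20 was -2.03 ± 0.88 (adjusted p = 0.419) and that for Kif20a 1.48 ± 0.49 (adjusted p = 0.233).

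Between sources within a population, more members were higher in embryos than in spheroids. Embryo libraries lay in plate columns 11 and 12, apart from the spheroid columns of the same population. Source, column and stage therefore cannot be told apart, here or in the test of the difference above. In GFP+ cells 15 of the 36 were called higher in embryos and 4 in spheroids, where 19.7% and 48.3% of all 11822 genes were called. With median-of-ratios size factors these were 25 and 2 members, but with voom and a weight for each group 2 and 0. Under voom the members' median log2 fold change was 0.10. The shares of all genes just given are those of the main fit, so the counts of these other fits have no background beside them. In RFP+ cells 19 were called higher in embryos and 4 in spheroids, where 20.1% and 22.5% of all 11147 genes were called. The median log2 fold change of the members was -0.42 in GFP+ cells, where that of all genes was 0.67, and -0.28 in RFP+ cells, where it was 0.04. Kif23 and Kif20a had the lowest values in GFP+ cells, at -2.13 ± 0.26 (adjusted p = 7.88e-10) and -2.07 ± 0.29 (adjusted p = 3.10e-08). Cdc23, which overlaps Kif20a, had medians of 322 CPM in GFP+ embryo and 128 CPM in GFP+ spheroid cells, and its part in the value of Kif20a was not tested. In RFP+ cells the lowest value was that of Incenp, the scaffold of the passenger complex (-0.99 ± 0.15, adjusted p = 3.79e-07). Cdc20 was higher in spheroids in GFP+ cells (1.45 ± 0.35, adjusted p = 0.000424) and higher in embryos in RFP+ cells (-0.74 ± 0.14, adjusted p = 3.73e-05). In GFP+ embryo libraries fewer genes were detected than in any other group but well C9, and what part this has in the GFP+ comparison was not tested.

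Across spheroid wells the mitosis genes moved together, with higher correlations in GFP+ than in RFP+ cells. These correlations are descriptions: they were taken without well C9 and with the 7 near-identical pairs of RFP+ wells summed, and the values of a well share its library and its depth. In GFP+ cells the Pearson correlation between a member and the sum of the other members had a median of 0.75 (n = 37 wells), and it was above 0.3 for 35 of 36 members and for 14% of the other 9904 genes. In RFP+ cells the median was 0.51 (n = 39), and it was above 0.3 for 30 members and 5.18% of other genes. With all wells used, the GFP+ median was 0.69, but 49.4% of other genes then also exceeded 0.3, and Plk1 (0.51 in GFP+, 0.75 in RFP+), Cenpf, Cdc25c, Tpx2, Prc1 and Spc25 had the higher value in RFP+ cells. Birc5 (0.93) and Pttg1 (0.88) followed the sum most closely in GFP+ cells and Ccnb1 (0.77) and Nusap1 (0.74), a spindle microtubule protein, in RFP+ cells. Cdc25b was lowest in both (0.21 and 0.17). The closest pair in GFP+ cells was Cdk1 and Ube2c (r = 0.88) and in RFP+ cells Plk1 and Bub3 (r = 0.76). Cdc20 had r = 0.47 in GFP+ and 0.26 in RFP+ cells. Among members of a mean of at least 50 CPM, the median SD of log2 CPM was 0.53 over the 37 GFP+ wells and 0.28 over the 46 RFP+ wells, where all genes of that level had 0.31 and 0.27.

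**Figure D4:**
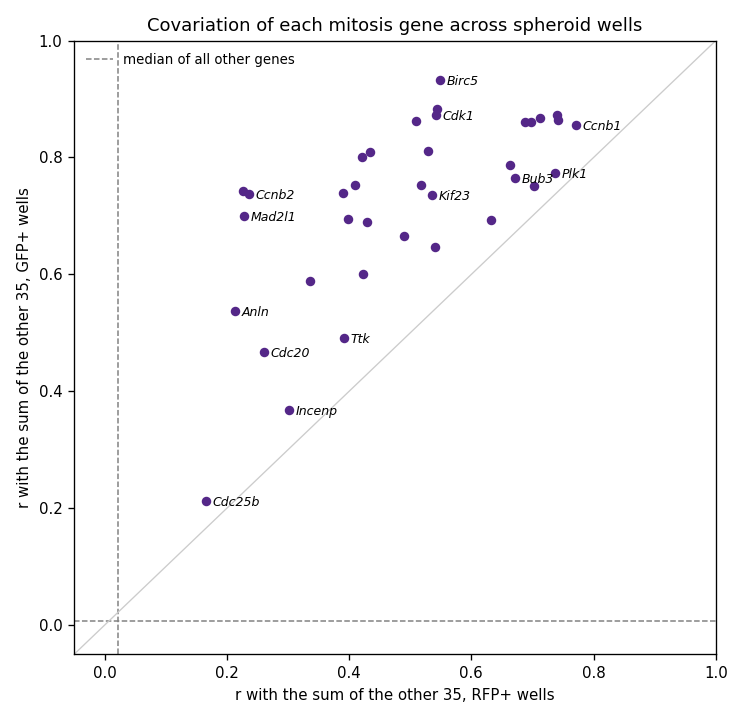
Correlation of each mitosis gene with the summed level of the other 35 across spheroid wells, in GFP+ cells (vertical, 37 wells) against RFP+ cells (horizontal, 39 wells). All 36 points sit above the diagonal, and the dashed lines give the medians of all other genes, near 0 in both populations.

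The summed level of the mitosis genes followed that of the further G2 and mitosis genes in both populations, with r = 0.96 in GFP+ (n = 37) and 0.90 in RFP+ wells (n = 39). With the sum of 53 genes of S phase and DNA replication, r was 0.70 in GFP+ (n = 37, Spearman's rho 0.70) and 0.01 in RFP+ wells (n = 39, rho -0.01). With Cdkn1a, which encodes the Cdk inhibitor p21, r was -0.53 in GFP+ (rho -0.48, and r of -0.42 without the 2 wells farthest from the median) and -0.24 in RFP+ wells (rho -0.26). With the log10 of the total count r was 0.15 in GFP+ (0.28 without the 2 farthest wells) and 0.21 in RFP+ wells (0.14). With the summed cardiomyocyte markers r was 0.32 in GFP+ (rho 0.45, and r of 0.17 without the 2 farthest wells) and 0.07 in RFP+ wells (rho 0.04). The pharyngeal and second heart field markers gave 0.31 in GFP+ (rho 0.32, and r of 0.28 without the 2 farthest wells) and -0.11 in RFP+ wells. The endoderm markers gave -0.26 and 0.11. For the pluripotency, endothelial and blood markers r lay between 0.01 and 0.08 in GFP+ and between -0.10 and 0.05 in RFP+ wells. Wells of a population may share a differentiation, which these values do not separate.

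Other cell cycle genes, in lists set by function with earlier results of these data known, were read beside the members. The lists were also read against the 37.8% of all genes higher in RFP+ and the 40.1% higher in GFP+ spheroid cells. In spheroids, 50 of 53 genes of S phase were called higher in RFP+ cells and 1 higher in GFP+ cells, led by Ccne1 (log2 1.66), Cdc6 (1.51) and Ccne2 (1.37), which act at the start of replication. Prim2, a subunit of primase, was the exception (-0.28). Of 90 tested genes on a further list of G2 and mitosis, 68 were higher in RFP+ cells, led by Cenpm (1.57), Sapcd2 (1.28) and Ska1 (1.17), and 11 were higher in GFP+ cells, led by Ckap2 (-1.88), Gtse1 (-1.73) and Psrc1 (-1.39). Gtse1 and Psrc1 are known as targets of p53. Ckap2 had a mean of 480.0 ± 138 CPM over the 38 GFP+ wells (SD) and of 135 ± 34.1 CPM over the 46 RFP+ wells, and with the members' sum it had r = 0.03 in GFP+ wells, where Gtse1 had -0.37 and Psrc1 -0.34. Of 15 core subunits of the APC, 10 were higher in RFP+ cells, led by Anapc13 (0.82), Cdc26 (0.73) and Anapc15 (0.72), and 2 in GFP+ cells, Anapc7 (-0.46) and Anapc2 (-0.19).

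Of the Cdk inhibitors, 3 of the 4 tested in spheroids were higher in GFP+ cells. Cdkn1a had a mean of 504 ± 109 CPM over the 38 GFP+ wells (SD) and of 59.8 ± 33.2 CPM over the 46 RFP+ wells (log2 -3.12 ± 0.13, adjusted p = 7.39e-41). Every GFP+ well lay above its highest RFP+ well, at 149.9 CPM. The lowest GFP+ value, 220.0 CPM, was that of the shallow well C9 and rests on very few counts. Cdkn2b, or p15, was at 20.0 ± 10.8 CPM in GFP+ and 2.33 ± 2.18 CPM in RFP+ wells (log2 -3.15 ± 0.24, adjusted p = 5.91e-22). Cdkn1b, or p27, differed less (-0.32), and Cdkn2d was higher in RFP+ cells (0.18, adjusted p = 0.0855). In embryos Cdkn1a was near 0 in both populations, at most 1.08 CPM in GFP+ and 5.10 CPM in RFP+ libraries, and Cdkn2b had no count in any library. Cdkn1c, or p57, had means of 122 ± 61.8 CPM over the 5 GFP+ embryo libraries (SD) and 66.1 ± 36.3 CPM over the 4 RFP+ ones, with a log2 fold change of -0.93 ± 0.70 (adjusted p = 0.670, edgeR).

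**Figure D5:**
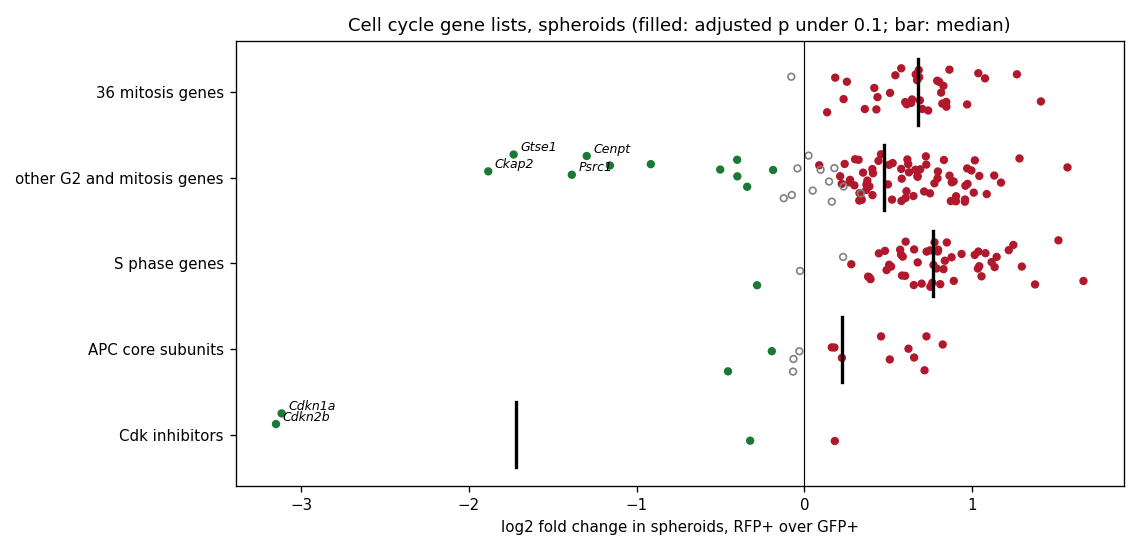
Log2 fold change between RFP+ and GFP+ spheroid cells of each gene on 5 cell cycle lists, with list medians as bars and filled points for an adjusted p under 0.1. The 36 mitosis genes and the S phase genes lie almost all to the right, and Cdkn1a, Cdkn2b, Ckap2, Gtse1 and Psrc1 lie furthest to the left.

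In embryos the same lists gave few calls, all higher in RFP+ cells, at shares (5.56% and 7.69%) on either side of the 6.21% of all genes. These were 5 of 90 further genes of G2 and mitosis (Depdc1b at log2 8.52, Sapcd2 at 5.15, Spc24 at 2.50, Cks2 at 1.68 and Cdca3 at 1.27), 4 of 52 genes of S phase (among them Rfc3 at 1.53, Tyms at 1.45 and Mcm6 at 1.00) and none of 15 APC subunits, of which 3 had an unadjusted p under 0.05. Spc24 is the partner of Spc25 in the Ndc80 complex, and Spc25 itself was at -0.33 ± 0.66. In spheroids Depdc1b, Sapcd2, Spc24, Cks2, Cdca3, Rfc3, Tyms and Mcm6 were each also called higher in RFP+ cells, from log2 0.41 for Cks2 to 1.28 for Sapcd2. Depdc1b had means of 31.4 CPM in GFP+ and 50.8 CPM in RFP+ spheroid wells, far closer than its embryo fold change. GFP+ embryo libraries held fewer detected genes, and the part of this in the largest embryo values was not tested.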

How the data were processed

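Libraries were pools of 10 sorted cells. The authors trimmed reads with Trimmomatic 0.36, mapped them to mm10 with HISAT2 2.0.4 and counted them with featureCounts 1.5.2 (versions from the submitters' processing notes), and the deposited values are whole read counts per gene symbol without normalization. The kit does not mark strand, and the strand setting is not given in the sources used here, so reads of genes that overlap on opposite strands (Kif20a with Cdc23, Ube2c with Tnnc2, Cdc25c with Gm3550, Ccna2 with Exosc9 and Prc1 with Rccd1 share most) may be lost or shared, and Ccnb1 has near-identical pseudogenes. Reads carry no molecular identifiers.

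The tests used edgeR 4.0.16 (TMM, filterByExpr with a minimum count of 10, quasi-likelihood test), limma 3.58.1 and DESeq2 1.42.0 in R 4.3.3. Adjustment followed Benjamini and Hochberg over every gene tested, and genes were called under an adjusted p of 0.1. SE is the log2 fold change over the root of the F statistic. Fold changes of the 2 sources were compared by their separate SEs with 7 degrees of freedom. CPM use TMM over all libraries, and log2 CPM a prior count of 2. Tests were also run on simulated counts in which both populations had the same spread, unlike the embryo libraries. Groups came from the sample labels, and no library was left out unless stated. The members and lists were chosen with earlier results of these data known. Full values are given for members called in embryos, the 3 largest and 3 smallest fold changes in spheroids, the highest mean of each role, members whose fold change differed between sources and those under the filter, and genes of other lists are named if called in embryos or among the 3 largest in each direction in spheroids. Mad2l1 and other members were named after their values were seen, and 1 gene of the other lists is not reported here. Gene positions are from GENCODE M21 and promoters from RefSeq, both on GRCm38. Alternatives were another tool, scaling, filter, threshold, robust or joint fit, voom with group weights, plate row, deeper libraries, summed wells and each embryo library left out.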

Additional observations from a re-analysis of the deposited data

Results flagged for a closer look

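Of 72 sets of embryo values, each 1 gene in 1 population, 3 (4.17%) had 1 library far from the others by Dixon's criterion, where chance gives about 5%. Ccnb1 was at 484 CPM in RFP+ library H11, and the other 3 RFP+ libraries lay between 613 and 632 CPM. Cdc25c was at 446 CPM in GFP+ library A12, and the other 4 lay between 0 and 68.2 CPM. Without that library its log2 fold change in embryos changed from -0.40 to 1.51. Cdc25b was at 3.23 CPM in the same library and at 0 in the other 4. The log2 fold change of Kif23 differed between sources by 1.74 in the test of the difference (edgeR estimates, adjusted p = 0.0651).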

How the results depend on the processing

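In spheroids, 34 to 35 members were called, all higher in RFP+ cells, under each of 12 alternatives, and the median log2 fold change ran from 0.66 to 0.74. In embryos the count of 2 became 1 without the filter on low counts and at an adjusted p under 0.05, 16 in 1 fit over all 4 groups, and 0 to 4 with each embryo library left out (0 without RFP+ library G11 or H11, and 4 without GFP+ library C12). The joint fit takes 1 spread per gene for all groups, although the members' SDs differed between them. The main embryo fit likewise takes 1 spread per gene for GFP+ and RFP+ libraries, whose SDs also differed. The 16 calls of the joint fit were 14 higher in RFP+ cells and 2 higher in GFP+ cells. Members that differed between sources numbered 15 in that fit's interaction term, 3 in voom with group weights, 0 at an adjusted p under 0.05 and 0 to 2 with each embryo library left out. Kif23 passed in both interaction fits (adjusted p = 4.76e-05 and 0.0190). Under voom, 2 members were called between sources in GFP+ cells and 13 in RFP+ cells, against 19 and 23, and the GFP+ median log2 fold change was 0.10. The shares of all genes called in the voom fits between sources are not given here. Directions in embryos reversed under voom for Spc25 (0.42), Prc1 (0.057), Top2a (0.057) and Cdc25c (1.84). With each embryo library left out, the ranges were -0.60 to 0.16 for Spc25 and -0.39 to 0.50 for Top2a (positive only without GFP+ library D12), and -0.51 to 0.17 for Prc1 and -0.73 to 1.51 for Cdc25c (positive only without GFP+ library A12). The causes were not tested. GFP+ embryo libraries had the lowest median total count of the 4 groups (979550) and a wide spread. The part of each in these values was not tested. No paired analysis was possible because the wells carry no shared replicate numbers.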
